A study of Mus musculus with 2 samples.

Results

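The genes described here were 9 transcription factor genes that mark regions of the embryonic mesenchyme, taken by symbol from the 52636 genes of each deposited table. They were 6 T-box genes (Tbx2, Tbx3, Tbx4, Tbx5, Tbx15 and Tbx18), the paired-type homeobox gene Pitx1 and the forkhead genes Foxc1 and Foxc2, and each symbol matched 1 row. Expression had been measured by RNA-seq in 2 libraries of C57BL/6 mouse tissue labelled retina at 8 weeks of age, 1 of wild-type genotype (WT) and 1 of miR-29a knockout genotype (KO), each from the pooled retinas of 3 mice. The labels do not say how the allele was made or whether it is active in the whole animal. With 1 library per group there were no replicates, so each difference is between these 2 libraries and not between the genotypes, and no p-value was computed.

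Mesenchyme is the loose embryonic tissue that gives rise to fibroblasts, cartilage, bone and vessel walls, and fibroblasts of the adult keep part of the transcription factor code of the region in which they arose. Tbx5 marks the forelimb field, Tbx4 and Pitx1 the hindlimb field, Tbx15 and Tbx18 parts of the trunk and head mesenchyme, and Tbx2 and Tbx3 encode related repressors used in limb, heart and eye. Foxc1 and Foxc2 are required in the periocular mesenchyme, the neural crest and mesoderm around the optic cup that forms the corneal stroma, the iris stroma and the drainage angle of the eye.

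The libraries went against the tissue in their labels and are therefore called WT-labelled and KO-labelled. Of 9 photoreceptor genes, 8 lay under 1 FPKM (the deposited level per length of exon and per library total) in both libraries. So did 9 of 10 inner retinal neuron genes, with Grm6, Gad1 and Pou4f2 among those at 0 counts. The exceptions were Rom1 (35.2 FPKM WT-labelled, 14.7 KO-labelled) and Rbpms (8.68 and 8.03). Of 5 genes of retinal Muller glia, 2 reached 1 FPKM in each library, Glul (44.3 and 51.9 FPKM) and Slc1a3 (2.98 and 2.41). The 10 fibroblast genes had a median of 158 and 165 FPKM in the WT-labelled and KO-labelled libraries. The libraries held 26805902 and 24876925 counts. Xist, the RNA of the inactive X chromosome, had 4288 and 0 counts, and 4 Y-linked genes summed to 164 and 1092, so the libraries differed in sex chromosome transcripts. Mir29a had 0 counts in both, which checks neither label, because such a library seldom counts a precursor of that length.

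The sequence link between the microRNA named in the knockout label and these genes was looked for in their 3' UTRs. MicroRNAs bind through the seed, bases 2 to 8. The mature sequences (RefSeq, GRCm38.p6) are printed 5' to 3' with the seed in capitals to show that miR-29a shares it with miR-29b and miR-29c, which are encoded by other precursors.
miR-29a-3p: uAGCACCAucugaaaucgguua
miR-29b-3p: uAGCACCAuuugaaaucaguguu
miR-29c-3p: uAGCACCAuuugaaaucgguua
The reverse complement of the seed, TGGTGCT, occurred in the longest annotated 3' UTR of 2 of the 9 genes, Tbx18 and Foxc1. It was present in 16% of the 3' UTRs of 11580 protein-coding genes with 50 or more counts. Only 5 of the 9 members reached that count, Tbx18 and Foxc1 among them. The 3' UTRs of Tbx18 (2421 bases) and Foxc1 (3607 bases) were the longest of the 9, against a median of 1224 bases in the background. The Tbx18 site lay at chr9:87703835-87703863 on the minus strand and the Foxc1 site at chr13:31812058-31812086 on the plus strand (GRCm38, GENCODE M21), and both windows are printed 5' to 3' on the transcript strand with the match in capitals.
Tbx18 site: tctcgcctttaTGGTGCTagtgctgcaag
Foxc1 site: ctgttgccttgTGGTGCTgggaaaaaatg
The Tbx18 match was followed by an A, the base that strengthens a seed site, and the Foxc1 match by a G. The values of these genes lay in opposite directions, as described below: Tbx18 was higher and Foxc1 lower in the KO-labelled library. Tbx15 held a shorter match, to bases 2 to 7 of the seed, and the other 6 genes held neither.

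Levels of the 9 genes spanned a wide range. Their order by mean FPKM was led by the periocular genes and closed by the limb field genes Tbx4 and Tbx5. The third limb field gene, Pitx1, stood above Tbx2. Foxc2 had 17.8 FPKM (WT-labelled library) and 16.9 FPKM (KO-labelled library), Foxc1 12.3 and 9.06, and Tbx3 4.55 and 9.26. Tbx15 had 3.63 and 4.69 FPKM, and Tbx18 0.703 and 1.40. Below these lay Pitx1 (0.609 and 0.601 FPKM), Tbx2 (0.250 and 0.147), Tbx4 (0.0812 and 0.0361) and Tbx5 (0 and 0.00875). Foxc2 stood within the top 16.0% and 16.4% of the genes with a count in each library, and Tbx3 within the top 35.5% and 24.3%. The order was the same in both libraries except that Tbx3 stood above Foxc1 in the KO-labelled library, where their counting intervals overlapped (8.79 to 9.74 and 8.58 to 9.57 FPKM). Neighbours in the order whose intervals also overlapped were Tbx18 and Pitx1 in the WT-labelled library, Tbx2 and Tbx4 in both libraries, and Tbx4 and Tbx5 in the KO-labelled library. FPKM used the exons of all transcripts of a gene, and this length was 1.33 times that of the longest transcript for Tbx3, more than for any of the other 8 genes.

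**Figure D1:**
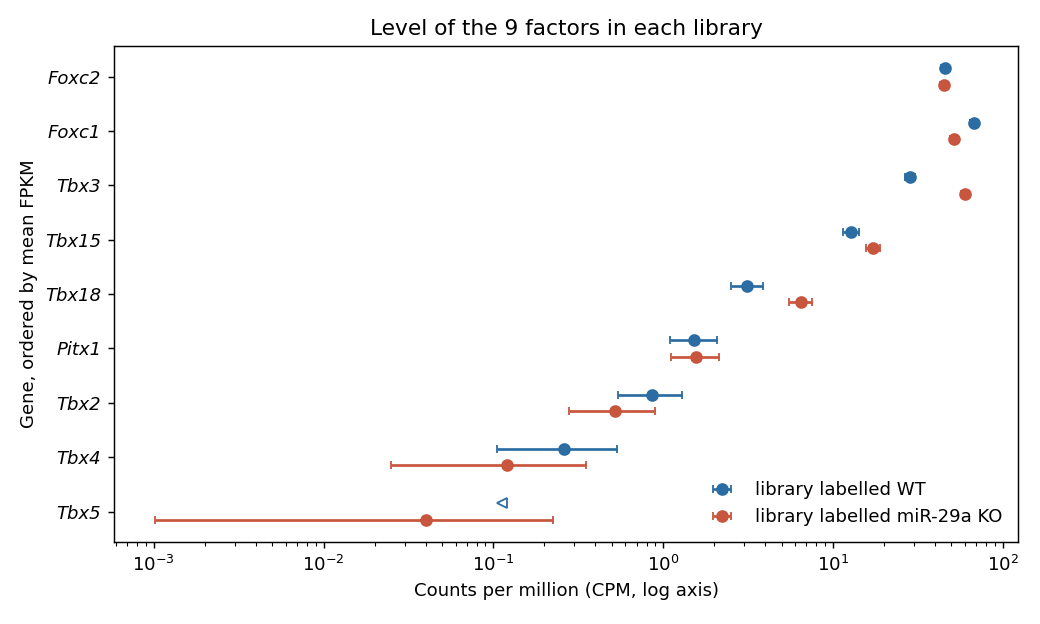
CPM (scaled counts, log axis) of the 9 genes in the WT-labelled (blue) and KO-labelled (red) libraries, in the order of mean FPKM. Points are single libraries, and bars are exact Poisson 95% intervals that cover counting error only. The open triangle marks a gene with 0 counts and is drawn at a fixed 3 counts (0.112 CPM), not at a Poisson limit. Foxc2, Foxc1, Tbx3 and Tbx15 lie above 10 CPM in both libraries, and Tbx2, Tbx4 and Tbx5 below 1 CPM.

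Between the libraries, Tbx3 was the member with the largest difference among the 5 that reached a minimum of 50 counts in either library. Of these 5, Tbx3 was 2-fold or more higher in the KO-labelled library, 0 were 2-fold or more lower, and Tbx15, Tbx18, Foxc1 and Foxc2 were neither, on the log2 ratio of CPM (each count divided by its own library total, then rescaled) with 0.5 CPM added to each. Across all 12382 genes with as many counts, 7.29% passed 2-fold in either direction, 4.47% higher and 2.82% lower. The share of 1 in 5 members lay above this background, but it is a single gene. The median log2 ratio was 0.41 over the 5 members and 0.06 over all genes. Pitx1, Tbx2, Tbx4 and Tbx5 did not reach the minimum.

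Among the T-box repressors, Tbx3 encodes a factor that represses cell cycle inhibitor genes and takes part in limb and mammary development. It had 763 counts (28.5 CPM, interval 26.5 to 30.6) in the WT-labelled library and 1499 (60.3 CPM, 57.2 to 63.4) in the KO-labelled library. The counting intervals did not overlap, and the KO-labelled library was 2.12-fold higher (1.94 to 2.31), at the 96.2 percentile of all log2 ratios. The lower limit of that interval lay under 2-fold. On the deposited FPKM with 0.5 added its log2 ratio was 0.95, under the threshold. Tbx2, its nearest relative, had 23 counts (0.858 CPM) and 13 counts (0.523 CPM), and the ratio of 0.609 had an interval of 0.283 to 1.25, so no difference was detectable at this depth.

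The Tbx3 locus also held an RNA that differed the same way. Tbx3os1, an antisense gene on the minus strand of chromosome 5 (119570130 to 119671365), overlaps the first 697 bases of Tbx3 (119670669 to 119684724, plus strand) and had 32 and 68 counts. It was 2.29-fold higher in the KO-labelled library (1.48 to 3.60), with a log2 ratio of 0.93. The library kit does not mark strand, so reads from the overlap cannot be assigned to either gene. Tbx3os2, which begins 370 bases beyond the other end of Tbx3, had 2 and 8 counts. Tbx5 lies 147943 bases from Tbx3 on the same strand, and 3 long noncoding RNA genes within 50 kb of it had 0 counts in both libraries.

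Of the limb field genes, Tbx5, which starts the forelimb bud and patterns the heart, had 0 counts in the WT-labelled library and 1 in the KO-labelled library. Tbx4, which acts in the hindlimb bud and the lung mesenchyme, had 7 counts (0.261 CPM, 0.105 to 0.538) and 3 counts (0.121 CPM, 0.0249 to 0.352). Their intervals overlapped, with a ratio of 0.462 (0.0771 to 2.02). Pitx1, which acts upstream of Tbx4 in the hindlimb, had 41 counts (1.53 CPM) and 39 counts (1.57 CPM). No difference beyond counting error was detectable for Pitx1, with a ratio of 1.02 and an interval of 0.644 to 1.63. Pitx1 reads can include those of AC164426.2, an antisense gene that overlaps 9943 bases of it and had 6 and 3 counts. Tbx2 and Tbx4 lie 44473 bases apart on chromosome 11, and Bcas3, 6492 bases before Tbx2, had 703 and 689 counts, so the low values of Tbx2 and Tbx4 were not shared by this neighbour.

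The trunk and head mesenchyme genes were both higher in the KO-labelled library, by less than the threshold. Tbx15, which acts in skeletal growth, skin patterning and fat, had 345 counts (12.9 CPM, 11.5 to 14.3) and 430 counts (17.3 CPM, 15.7 to 19.0). The intervals were apart and the KO-labelled library was 1.34-fold higher (1.16 to 1.55). Tbx18, which acts in the segmented mesoderm and the ureter and marks mural cells of vessels, had 84 counts (3.13 CPM, 2.50 to 3.88) and 162 counts (6.51 CPM, 5.55 to 7.60). Its intervals were apart too. The ratio of its CPM was 2.08 (1.59 to 2.74) and its log2 ratio with 0.5 CPM added was 0.95. When counts were scaled by library totals, the addition alone brought Tbx18 just below the threshold. Tbx3, at 1.07, lay just above. The antisense gene D030062O11Rik overlaps 1976 bases at the start of Tbx18 and had 16 and 19 counts; these reads too could not be assigned by strand.

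Of the periocular genes, Foxc1 was lower in the KO-labelled library and Foxc2 did not differ beyond counting error; after the GC and length correction their log2 ratios were -0.18 and 0.31. Foxc1, a forkhead factor whose loss disturbs the drainage angle and cornea, had 1817 counts (67.8 CPM, 64.7 to 71.0) and 1295 counts (52.1 CPM, 49.3 to 55.0). Its intervals were apart, and the KO-labelled library stood 1.30-fold lower (1.21 to 1.40). Foxc2, its close relative in eye and lymphatic vessel development, had 1230 counts (45.9 CPM, 43.4 to 48.5) and 1127 counts (45.3 CPM, 42.7 to 48.0). Its intervals overlapped, with a ratio of 0.987 (0.910 to 1.07). The forkhead gene Foxl1, 9044 bases from Foxc2 on chromosome 8, had 616 and 603 counts, while Foxf1, 28026 bases away on the other side, had 15 and 13. Mthfsd, between Foxf1 and Foxc2, stood 1.36-fold lower in the KO-labelled library on 801 and 547 counts.

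Ratios between members do not depend on how the libraries are scaled. The count of Tbx3 over that of Foxc1 went from 0.420 to 1.16 between the WT-labelled and KO-labelled libraries, 2.76 times as high (2.46 to 3.09, conditional exact interval). Tbx3 over Tbx15 went from 2.21 to 3.49, 1.58 times as high (1.33 to 1.87), and Foxc1 over Foxc2 from 1.48 to 1.15, 0.778 times as high (0.697 to 0.868). Balance among the factors thus differed between the libraries by more than counting error. None of the ratios in this paragraph was corrected for transcript GC content, which moved with the log2 ratio across all genes, as described below. Against Pdgfra, a receptor gene of fibroblasts, Tbx3 was 1.63 times as high in the KO-labelled library (1.48 to 1.78) and Tbx18 1.60 (1.22 to 2.10). Tbx15 stood at 1.03 (0.891 to 1.19), Foxc2 at 0.758 (0.696 to 0.825) and Foxc1 at 0.590 (0.546 to 0.636). These values depend on the reference gene. Of the 10 fibroblast genes listed, 5 had log2 ratios above 0 and 5 below. Pdgfra itself was 1.30 times as high in the KO-labelled library and Pdgfrb 0.762 times. Pdgfra also has a lower GC content (48.1%) than Foxc2 (62.0%).

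**Figure D2:**
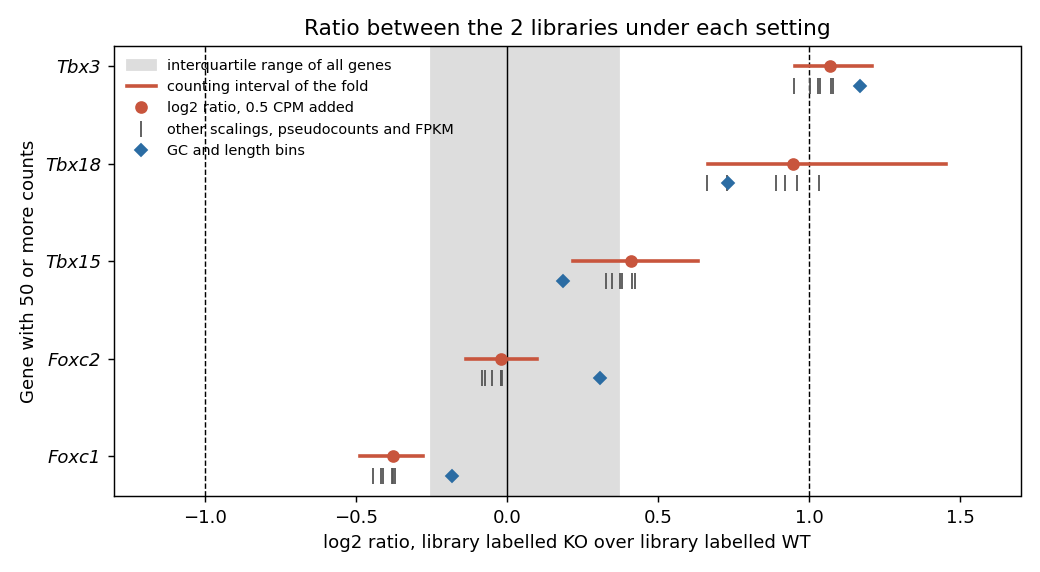
Log2 ratio of the KO-labelled library over the WT-labelled library for the 5 genes with 50 or more counts. Red points are the values with 0.5 CPM added, red bars exact 95% intervals of the fold for counting error only, grey ticks the other scalings, pseudocounts and FPKM, blue diamonds the values after correction for GC content and length, dashed lines the 2-fold threshold, and the grey band the interquartile range of all genes (-0.25 to 0.37). The values of Tbx3, Tbx18 and Tbx15 lie right of the band and that of Foxc1 left of it. The diamonds of Tbx15, Foxc1 and Foxc2 fall inside the band. The band was drawn from ratios without the correction, so it is not the spread of corrected values.

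Transcript GC content moved with the ratio across all genes and bears on these members. Across 12371 genes, which are not independent replicates, Spearman's rho between the log2 ratio and GC content was -0.44, and the median log2 ratio ran from 0.31 in the lowest of 10 bins of GC content to -0.31 in the highest. Foxc2 (62.0% GC) and Foxc1 (55.9%) lay among GC-rich genes, whose medians were -0.31 and -0.20, and Tbx18 (46.8%) and Tbx15 (48.2%) among genes with medians of 0.18 each. After subtraction of the medians of GC and length bins, Foxc2 changed sign from -0.02 to 0.31, Foxc1 moved from -0.38 to -0.18 and Tbx15 from 0.41 to 0.19. Tbx3 (54.2% GC), whose bin had a median of -0.13, moved from 1.07 to 1.17, and Tbx18 from 0.95 to 0.73. The part of GC content in these ratios was not tested beyond this correction.

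**Figure D3:**
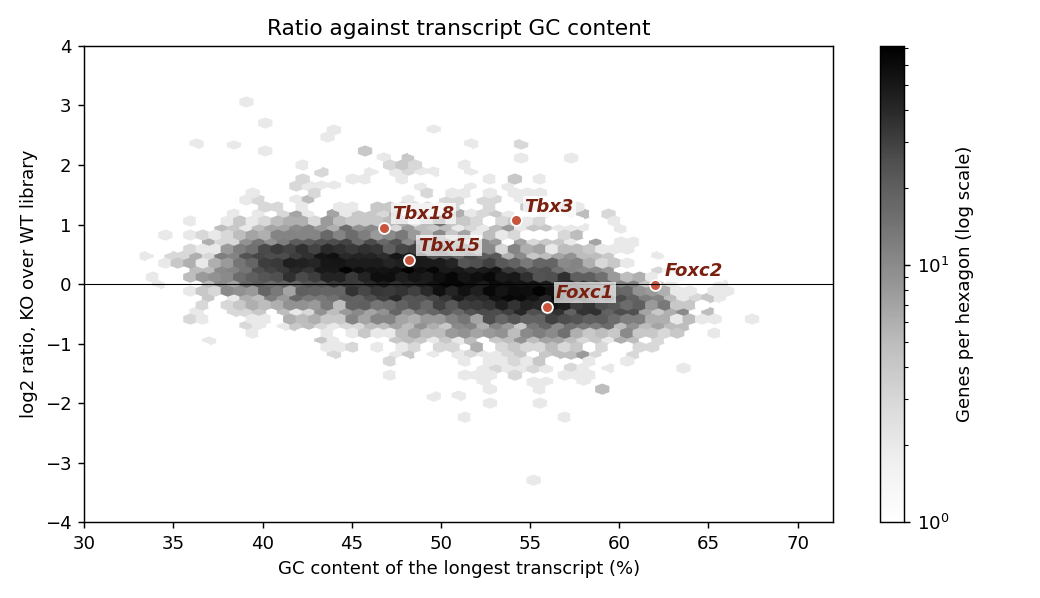
Log2 ratio of KO over WT library against GC content of the longest transcript (%) for genes with 50 or more counts, shaded by genes per hexagon on a log scale, with the 5 members in red. Ratios decline with GC content, Foxc1 sits inside the cloud, and Tbx3 sits in its upper part, at the 96.2 percentile of all log2 ratios. Not drawn are 3 genes beyond the log2 limits of 4 and 4 genes beyond the GC axis.

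Markers of other cell types moved between the libraries beside Tbx3 and Tbx18. Of 8 macrophage genes 7 had 50 or more counts and all 7 were 2-fold or more higher in the KO-labelled library, and the list summed to 103 and 388 CPM. Of 8 endothelial genes 7 reached that count, 4 were higher and 0 lower, and the list summed to 25.3 and 48.6 CPM. Cdh5 held the largest part of that difference (6.53 and 23.2 CPM), and Kdr had 8 and 58 counts. Tek (176 and 167 counts) and Emcn (212 and 163) had intervals of the ratio that included 1. With 2 CPM added or on FPKM, 1 endothelial gene was higher. The 10 fibroblast genes summed to 10505 and 11730 CPM, with 0 higher and 1 lower, Postn (2.12-fold, 2.00 to 2.25). The 7 mural cell genes summed to 137 and 178 CPM, with 0 of 3 past the threshold and a median log2 ratio of -0.29. Acta2, the smooth muscle actin gene, was the 1 of these 3 that was higher (81.3 and 131 CPM), Cspg4 (1340 and 1018 counts) lay lower, Abcc9 had 78 and 53 counts with an interval of the ratio that included 1, and Myh11 had 5 and 8 counts. The 7 skeletal muscle genes summed to 7.50 and 14.1 CPM, with 2 of 3 higher (Tnni2 and Acta1; Acta1 lay under the threshold in 4 of the 7 other settings, at log2 ratios of 0.73 to 0.97, and Tnni2 with 2 CPM added, at 0.72) and Myod1 at 0 and 6 counts. The part of these cells in the member values was not tested, and in bulk RNA a change in the number of cells and a change in RNA per cell cannot be told apart.

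Among other regional genes, those of the periocular mesenchyme were the most abundant in both libraries by their median. Of 11 periocular mesenchyme genes, 9 stood at 1 FPKM or more in the WT-labelled library and 8 in the KO-labelled library, with a list median of 21.2 and 17.4 FPKM. They included Twist1, a mesenchymal helix-loop-helix factor (108 and 84.3 FPKM), the Wnt antagonist gene Dkk2 (53.0 and 61.7) and the homeobox gene Six2 (40.7 and 25.9). None of the 10 periocular genes past the count minimum differed by 2-fold, 2 lay above 0 and 8 below, and their median log2 ratio was -0.24 (-0.15 after the GC and length correction), against 0.06 over all genes.

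The 21 limb mesenchyme factors were uneven in level, with a median of 0.665 and 0.536 FPKM and 9 at 1 FPKM or more in each library. The paired-type homeobox genes Prrx2 (155 and 110 FPKM) and Prrx1 (38.0 and 43.4), which are used in head and limb mesenchyme alike, were the highest beside Twist1. Hand2, Isl1, Sall4 and Lhx9, which act in the early limb bud, had 0 counts in both libraries. Of 11 past the minimum 0 were 2-fold higher and 1 was lower in the KO-labelled library, the homeobox gene Meis2 with 203 and 69 counts (2.73-fold, 2.07 to 3.64; under the threshold on FPKM, at -0.67), and the median log2 ratio was -0.30 (-0.08 after the GC and length correction). All 5 forelimb-level Hox genes and all 5 hindlimb-level Hox genes, Hoxc10 and Hoxc11 among them, had 0 counts in both libraries. By the Poisson interval, 0 counts allow up to 0.138 CPM (WT-labelled) and 0.148 CPM (KO-labelled).

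**Figure D4:**
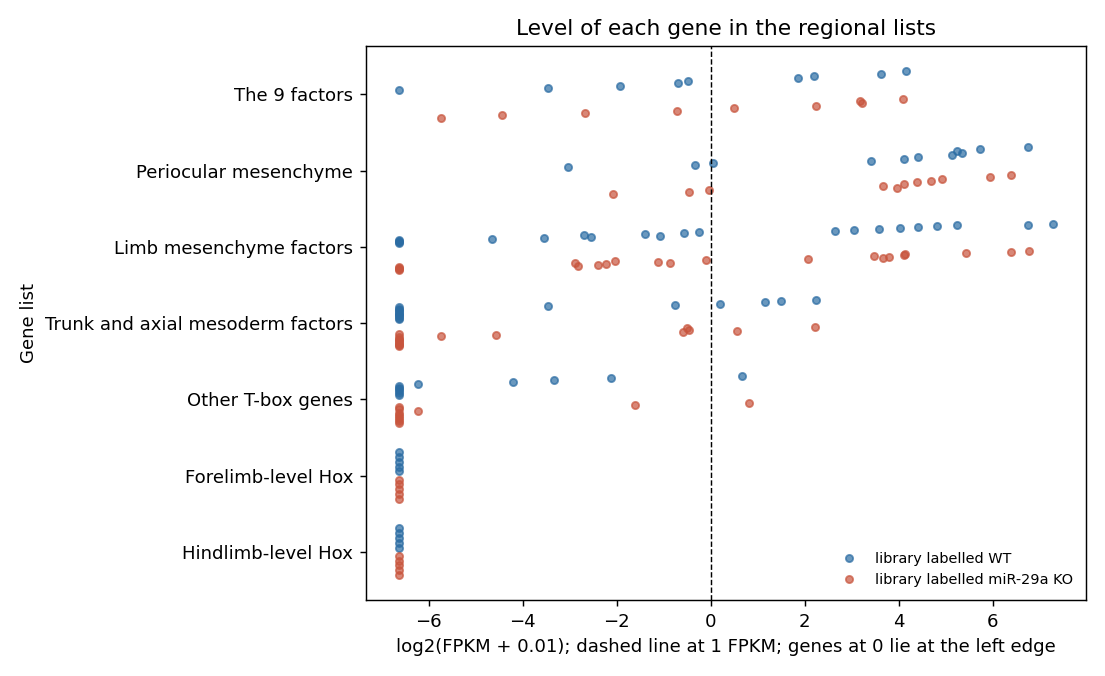
Level of each gene as log2(FPKM + 0.01) in the WT-labelled (blue) and KO-labelled (red) libraries, by list, with the dashed line at 1 FPKM and genes at 0 at the left edge; some genes are in more than 1 list. Most periocular genes lie right of the line, the limb list is split, and both Hox lists lie at 0.

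The trunk and axial mesoderm factors had low values, with a median of 0 FPKM in both libraries. Of 16, 8 had 0 counts in both libraries, among them Pax3, Pax7, Tcf21 and Wt1, and 5 passed the minimum. The homeobox gene Emx2 had 4.72 and 4.66 FPKM. The homeobox gene Meox1 (158 and 38 counts) was 3.86-fold lower (2.69 to 5.65) in the KO-labelled library. Among the other T-box genes, only Mga, a widely expressed partner of the MYC network, passed the minimum (615 and 651 counts), and 6 of 11 had 0 counts in both libraries. Of 9 other mesenchymal forkhead genes 6 passed, with 0 past 2-fold, and the highest by mean FPKM were Foxl1 (8.99 and 9.12), Foxd2 (11.4 and 6.55) and Foxs1 (7.64 and 8.67).

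Genes known to act with or downstream of these factors were measured as lists from textbook knowledge. Of 14 limb bud signalling genes 8 passed the minimum and 3 were 2-fold or more higher in the KO-labelled library, with 0 lower. Over all genes past the minimum, 4.47% were higher and 2.82% lower. The bone morphogenetic protein antagonist gene Grem1 had 935 and 3072 counts (3.54-fold, 3.29 to 3.81), the ligand gene Bmp2 303 and 988 (3.51-fold, 3.09 to 4.01) and the hedgehog receptor gene Ptch1 293 and 580 (2.13-fold, 1.85 to 2.46). Ptch1 lay under the threshold in 4 of the 7 other settings, at log2 ratios of 0.72 to 0.996. The most abundant genes of the list by mean FPKM were Fgf7 (34.3 and 49.7 FPKM), Grem1 (8.89 and 30.3) and Wnt5a (8.54 and 7.66). Fgf10, the mesenchymal growth factor gene that Tbx5 and Tbx4 activate in limb buds, had 471 and 425 counts, while Fgf8 and Wnt3a had 0 in both and Shh 0 and 5. The list's median log2 ratio was 0.52 against 0.06 over all genes, and Grem1 and Bmp2 carried its 2 highest values. After the GC and length correction the list's median was 0.40 against 0 over all genes, and 2 of its genes were higher.

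Of 10 T-box target genes 5 passed the minimum and 0 differed by 2-fold; after the GC and length correction 1 was higher, Cdkn2a at a log2 ratio of 1.28. Cdkn2a, a cell cycle inhibitor gene that Tbx2 and Tbx3 are known to repress, had 2042 and 3606 counts and was 1.90-fold higher (1.80 to 2.01) in the library in which Tbx3 was higher. Cdkn1a, another such gene, had 325 and 297 FPKM, and the gap junction gene Gja1 42.3 and 61.3 FPKM. Nppa and Bmp10, heart targets of Tbx5, had 0 counts in both. Of 5 genes tied to Foxc factors 2 passed, with 0 past 2-fold. Their log2 ratios lay below 0 for Cxcl12, a chemokine gene that depends on Foxc1 in bone marrow stroma, at -0.45 (273 and 192 FPKM) and for Notch1, a receptor gene of arterial vessels, at -0.66. Under the minimum, Msx2, a homeobox gene of that list, lay the other way with 12 and 43 counts (3.86-fold higher, 2.00 to 8.04), and Dll4 (11 and 9 counts) and Hey2 (1 and 3) had intervals that included 1.

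The promoters of 3 members, Tbx4, Tbx18 and Foxc1, were in the RefSeq table of windows from 250 bases before to 50 after the start (GRCm38.p6). They were searched on both strands for the T-box element AGGTGTGA, the bicoid-type element TAATCC and the forkhead element TGTTTAC, none of which contains another. None of the 3 windows held any of them, and 1.28%, 7.06% and 3.65% of 32851 windows did.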

How the data were processed

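The members and lists were chosen with earlier results of these data known. The authors deposited, per the file headers, a raw read count and an FPKM per gene for each library; the aligner HISAT2 and the build mm10 (GRCm38) are named per the submitters' processing notes, and the sources used here do not give the counter, annotation release or strand setting. For 88.7% and 88.6% of genes with over 50 counts, the deposited FPKM matched, within 1%, the count divided by GENCODE M21 exon length and by a library total. Total RNA was freed of ribosomal RNA and made into libraries with a kit that does not mark strand, per the labels.

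Counts were divided by their totals to give CPM, 0.5 CPM was added, and log2 ratios were taken for genes that reached 50 counts in either library (12382 genes; 4 with inconsistent length were left out). Folds are ratios of CPM without addition, with Clopper-Pearson 95% intervals; levels have Poisson intervals. Both cover counting error only. By the Poisson intervals a count of 0 allows up to 0.138 and 0.148 CPM, and in the figure of levels it was drawn at a fixed 3 counts. Named were all members, list genes past 2-fold, up to 3 with the highest FPKM per list, and neighbours within 50 kb with 10 or more counts; any other gene was named after its values were seen. Some list genes that this rule names are not reported here. The GC and length correction subtracted medians of 10 bins of each. The procedure was run on simulated Poisson counts with planted changes larger than 2-fold. The simulation had no GC trend and no biological spread, so it cannot check calls near the threshold. Python 3.11.15, scipy 1.17.1, R 4.3.3 and edgeR 4.0.16 (TMM only) were used.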

Additional observations from a re-analysis of the deposited data

How the results depend on the processing

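No paired analysis was possible because each group has 1 library, and no library could be left out. The number of members 2-fold or more higher was 1, Tbx3, under median-of-ratios and TMM factors, under totals lacking mitochondrial and the 20 most counted genes, a pseudocount of 2 CPM, the GC and length correction, a minimum of 200 counts and no minimum. It was 2, with Tbx18, under a pseudocount of 0.1 CPM and under a 1.5-fold threshold, and 0 on the deposited FPKM with 0.5 added and under a 4-fold threshold. The number 2-fold or more lower was 0 under every setting run. The smallest value that kept Tbx3 past the threshold was 1.004 under median-of-ratios factors. Of 35 log2 ratios of the 5 members past the minimum under 7 settings, 30 stayed within the counting interval and 1 changed sign, Foxc2 under the GC and length correction (0.31). The depth of 26805902 and 24876925 counts could not resolve differences for Tbx2, Tbx4 and Tbx5. For Pitx1 the counting interval of the ratio, 0.644 to 1.63, left out 2-fold in either direction but included smaller differences.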

Other observations

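Several regional genes under the minimum of 50 counts had counting intervals apart from 1, and they were picked after their values were seen. Beside Msx2, Meis1 had 8 and 34 counts in the WT-labelled and KO-labelled libraries (4.58-fold higher, 2.08 to 11.5), whereas its relative Meis2 was lower. En1, a homeobox gene of dorsal and ventral limb patterning and of skin fibroblasts, had 31 and 8 counts (3.60-fold lower, 1.62 to 9.05), and Foxd1, a forkhead gene of stromal cells, had 40 and 17 (2.18-fold lower, 1.21 to 4.11). These intervals cover counting error only.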
